A study of Caenorhabditis elegans with 4 samples.

Results

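The broad peaks of BLMP-1 are the listed binding regions of 1200 bp or more that do not lie in a dense chain of peaks. They were selected on their measured width: 542 of the 10159 listed peaks passed. A chain joins neighbours with gaps under 1000 bp, and peaks in chains of 5 or more were left out, which removed 45 peaks of that width. The broad peaks were set against the 5237 peaks of 300 to 620 bp, the usual width in the list, and 5070 of these lay outside such chains.

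The data are from ChIP-seq, the sequencing of DNA recovered with an immunoprecipitated protein, in fed hermaphrodite L1 larvae of Caenorhabditis elegans strain OP109 at 20 °C. All samples are listed with 2% formaldehyde and 100 mM Tris. All worms carry the mutation unc-119 (ed3) III together with the transgene wgIs109, whose parts are blmp-1::TY1::EGFP::FLAG and a rescuing unc-119 (+), brought in by bombardment. The study has 2 ChIP libraries, recovered with affinity-purified goat antibodies to EGFP, and 2 libraries of input DNA, and the labels do not say whether the replicates were separate cultures. The tagged protein was recovered from whole worms, so that binding in different tissues is summed. No mutation of the native blmp-1 gene is listed in the genotype, and native BLMP-1 carries no tag.

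The zinc-finger protein BLMP-1 is the worm relative of vertebrate PRDM1 (Blimp-1), a regulator of cell fate in lymphocytes and germ cells of mammals. In C. elegans it is known for its roles in the epidermis and in the timing of larval development, where the F-box protein DRE-1 targets it for degradation. A transcription factor that contacts a single short motif gives a ChIP peak about as wide as the sonicated fragments, while a peak caller can also report wider regions. The listed edges do not show whether signal runs on without a break inside such a region.

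All values come from 1 combined list of peaks on WormBase build WS180, which gives the extent of each peak and its q value for ChIP against input. The depth per library is unknown, and values of the separate libraries are not in it, so replicate error could not be given for any peak. Numbers of ChIP tags and of input tags, which are as scaled by the peak caller, were inferred from the q values under a binomial model that the authors' files do not state. They came out whole for 10158 peaks and for 541 of the 542 broad peaks, under a number of candidate regions at which tags come out whole. The q value is a contrast of ChIP with input, and the tags were inferred from it. The width is the extent of the called region, and whether input had a part in setting it is unknown. Width, q and tags describe the same regions in the same libraries, so they are given as a description, with no test. Intervals are exact 95% intervals of the counting error over peaks, which lie in groups along the chromosomes, so that the intervals are too narrow. Sequences and genes at the peaks were not analysed here.

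Broad peaks ran from 1200 to 20797 bp, with a median of 1575.5 bp and quartiles of 1353 and 2072 bp. The peaks of 300 to 620 bp had a median of 418 bp. Of the broad peaks, 231 were under 1500 bp, 160 were from 1500 bp to under 2000 bp, 101 from 2000 bp to under 3000 bp and 50 were 3000 bp or more. Of the last, 11 reached 5000 bp and 2 reached 10000 bp. Widths fell off without a break at the threshold. The 5 narrowest broad peaks were 1200 to 1204 bp wide and had inferred ChIP to input ratios of 1.72 to 4.01, and the 5 widest peaks just under the threshold were 1196 to 1199 bp wide and had ratios of 1.42 to 3.86.

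**Figure D1:**
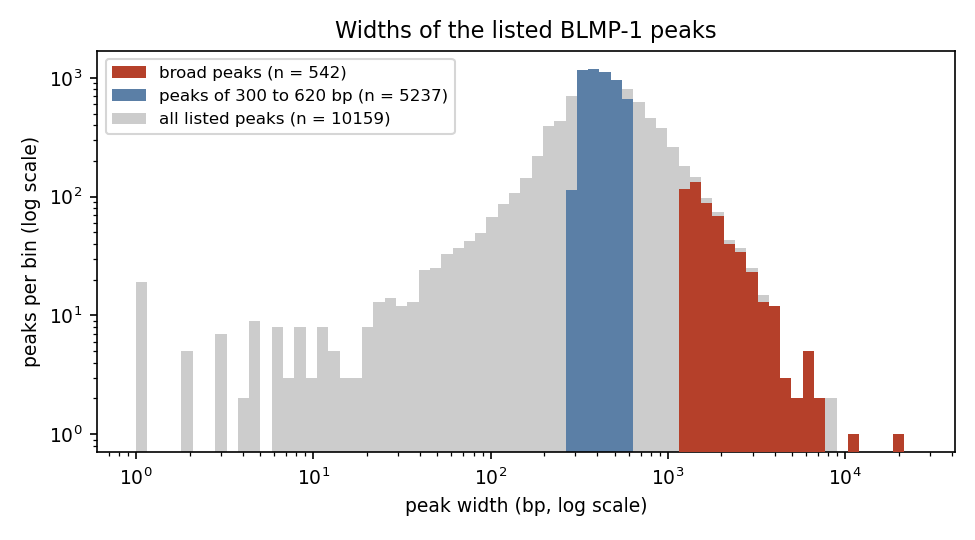
Number of peaks by width in bp, both axes on log scales, with broad peaks in red, peaks of 300 to 620 bp in blue and all 10159 listed peaks in grey. The 542 broad peaks form the right tail of 1 continuous distribution that reaches 20797 bp.

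Broad peaks made up 5.34% of the listed peaks but 19.2% of the listed length, 1048.5 kb of 5460.4 kb. They held 16.6% of the inferred ChIP excess, which is the sum of ChIP tags less scaled input tags over all peaks with inferred tags. The broad peak of lowest q, on V, has no inferred tags and is not in that sum. The peaks of 300 to 620 bp made up 51.6% of the peaks, 41.4% of the length and 43.9% of the excess. The share of the excess was thus below the share of the length for the broad peaks and above it for the peaks of usual width.

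A q under 1e-20 was listed for 366 broad peaks (67.5%), for 31.0% of the peaks of 300 to 620 bp and for 30.6% of all listed peaks. A q under 1e-100 was listed for 94 broad peaks (17.3%), for 1.03% of the peaks of 300 to 620 bp and for 3.00% of all listed peaks. The median −log10 q was 36.9 (32.3 to 41.7) in broad peaks and 11.8 (11.4 to 12.2) in those of 300 to 620 bp. The q value falls as tags accumulate over a longer region, and the median broad peak had 1230 ChIP and 625 input tags, against 297 ChIP and 137 input tags in the median peak of 300 to 620 bp. Of the 25 lowest q values of the list, 14 belonged to broad peaks, 3 to peaks of 1200 bp or more in dense chains and 0 to peaks of 300 to 620 bp.

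In the ratio of ChIP to input, the order was different. The ratio of inferred ChIP tags to inferred input tags had a median of 1.81 (1.76 to 1.89; quartiles 1.45 and 2.38) in broad peaks and 2.08 (2.05 to 2.11; quartiles 1.64 and 2.86) in peaks of 300 to 620 bp, against 2.04 over all listed peaks. The ratio was above the median of the 300 to 620 bp peaks in 199 of 541 broad peaks, or 36.8%. Its median was lower in broad peaks on 6 of 6 chromosomes. Ratios in broad peaks ran from 1.10 to 5.78, while those in peaks of 300 to 620 bp ran from 1.16 to 12.5.

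Set against the peaks of 300 to 620 bp with no cut on q, broad peaks had more input tags per kb and not fewer ChIP tags per kb. Among the 541 broad peaks themselves, Spearman's rho of the ratio was −0.55 with input and 0.48 with ChIP tags per kb. The ratio is made of both counts. Broad peaks had a median of 374 input tags per kb (363 to 384), against 324 (319 to 328) in peaks of 300 to 620 bp, and the broad median was higher on 6 of 6 chromosomes. More than 800 input tags per kb were found in 12 broad peaks (2.22%) and in 20 peaks of 300 to 620 bp (0.382%). ChIP tags in broad peaks had a median of 729 per kb (701 to 754), against 714 (706 to 719), and the broad median was the higher one on 4 of 6 chromosomes. Densities of narrow peaks include tags that overlap the edges, since the 42 peaks of at most 5 bp held 6 to 34 input tags with a median of 20. With the median tags of these smallest peaks taken off each count, the broad peaks had 361 input and 697 ChIP tags per kb and the peaks of 300 to 620 bp had 275 input and 582 ChIP tags per kb. Input was then higher in broad peaks by a wider margin, and ChIP was higher as well. Among the peaks with q of at most 1e-20 the order of ChIP was the other way, with 811 tags per kb in 366 broad peaks and 937 in 1626 peaks of 300 to 620 bp. That cut is on the same tags, and a peak of fewer tags passes it only at a higher ratio. It kept 67.5% of the broad peaks and 31.0% of the others. The part of the cut in the order under it was not tested.

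A wide region can be listed at a ratio at which a narrow one cannot. At the median total of 443 tags in the peaks of 300 to 620 bp, the lowest ratio that could pass as the last listed peak was 1.28, and at the median total of 1879 tags in broad peaks it was 1.13. Ratios under 1.28 were found in 63 broad peaks (11.6%) and in 79 peaks of 300 to 620 bp (1.51%). Above that ratio, the medians were 1.92 in 478 broad peaks and 2.09 in 5158 peaks of 300 to 620 bp, so that the order of the groups did not change. Peaks with fewer than 443 tags need a higher ratio than 1.28 to be listed. This cut therefore does not remove the listing limit, and the part of that limit in the order was not tested.

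**Figure D2:**
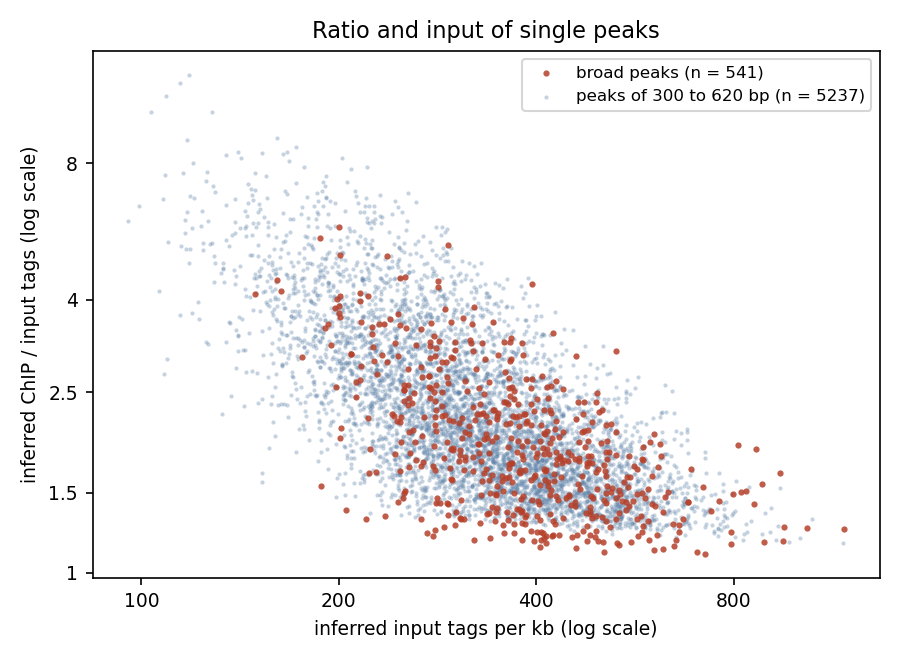
Ratio of inferred ChIP to input tags against input tags per kb, both on log scales, with 1 point per peak, for 541 broad peaks in red and 5237 peaks of 300 to 620 bp in blue. The red points reach down to a ratio of 1.10 and are few above 4, where 17 broad peaks lie.

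The values changed with width by degrees in peaks outside dense chains. The 45 peaks of 1200 bp or more in dense chains, with a median width of 1629 bp, differed from the broad peaks. Their median ratio was 2.57 (2.20 to 2.94), against 1.81 in the broad peaks. Their medians were 327 (281 to 358) input and 849 (720 to 931) ChIP tags per kb, against 374 and 729. With dense chains kept, the medians from 1200 bp were a ratio of 1.86 and 368 input tags per kb. Outside dense chains, the median ratio was 2.07 from 300 bp to under 620 bp, 2.06 from there to under 900 bp and 1.92 from there to under 1200 bp. Within the broad peaks it was 1.87 under 1500 bp, 1.81 from there to under 2000 bp, 1.67 from there to under 3000 bp and 1.81 in the 49 peaks of 3000 bp or more with inferred tags. Median input tags per kb over the same 4 classes were 344, 373, 392 and 414. Median ChIP tags per kb were 709, 729, 729 and 798. Just below the threshold, from 900 bp to under 1200 bp, the medians were 354 input and 746 ChIP tags per kb. High ratios thinned out most: a ratio of 2.5 or more was found in 28.6% of the broad peaks under 1500 bp and in 6.12% of those of 3000 bp or more. Across the 541 broad peaks, Spearman's rho was −0.12 between width and ratio, 0.22 between width and input tags per kb and 0.06 between width and ChIP tags per kb, as a description of peaks that share the same libraries.

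**Figure D3:**
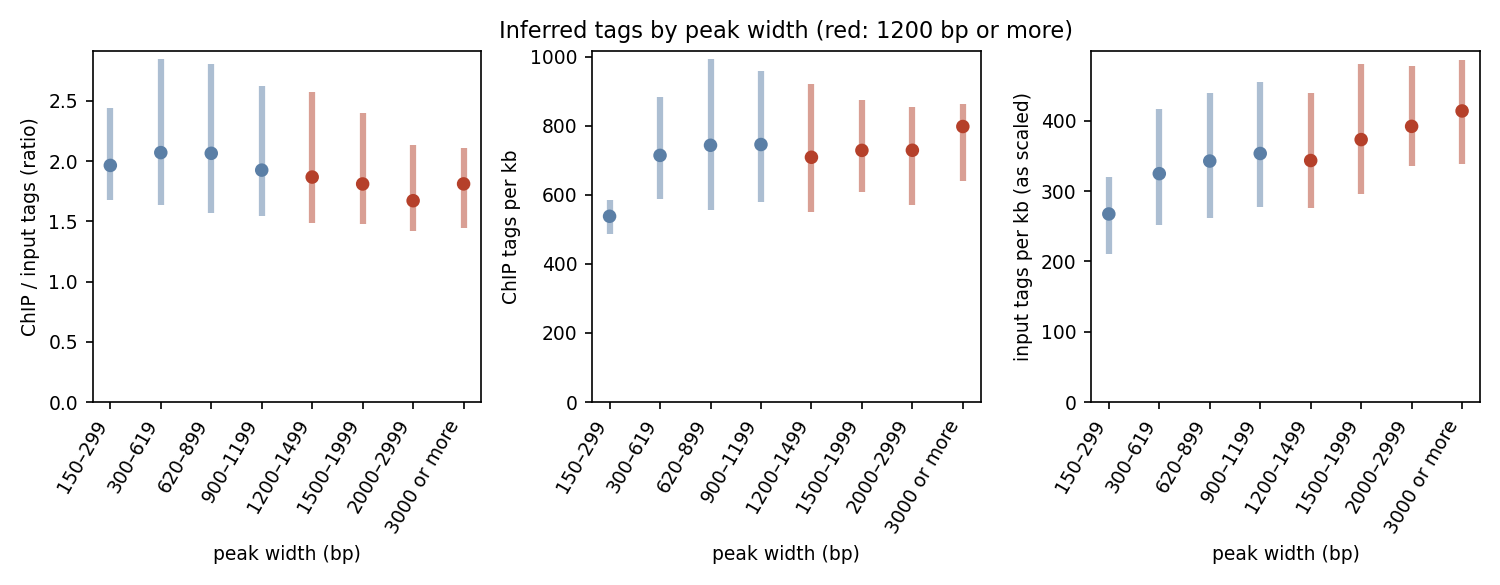
Medians (points) and quartiles (bars) of the ratio of inferred ChIP to input tags, ChIP tags per kb and input tags per kb, by width class in bp, for peaks outside dense chains of 150 bp or more; classes of 1200 bp or more are red. Median input rises from 344 to 414 tags per kb over the 4 red classes, with no step at the threshold.

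The ratio varied widely among broad peaks, without separate kinds being shown. A ratio under 1.5 was found in 160 of them (29.6%), against 14.9% of the peaks of 300 to 620 bp, and a ratio of 2.5 or more in 121 (22.4%), against 34.4%. The 160 of low ratio had a median of 446 input and 580 ChIP tags per kb, and a median width of 1675.5 bp. The 121 of high ratio had a median of 277 input and 878 ChIP tags per kb, and a median width of 1474 bp. The same cuts in peaks of 300 to 620 bp gave 465 input and 649 ChIP tags per kb at low ratio, and 244 and 845 at high ratio. Since the ratio is ChIP over input, these differences follow in part from the cuts. The high-ratio broad peaks more often had a close neighbour: 68.6% of them had another listed peak less than 1000 bp away, against 48.8% of the low-ratio ones. In peaks of 300 to 620 bp, those in dense chains included, the same shares were 47.9% and 29.7%. The central part of the chromosome, from 25% to 75% of the span between the outermost peaks, held 65.3% of the high-ratio broad peaks, 67.7% of those with a ratio from 1.5 to under 2.5 and 53.1% of the low-ratio ones. In peaks of 300 to 620 bp these shares were 67.4%, 63.4% and 55.8%.

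The widest region of the list had the highest input density of the broad peaks. It lay on chromosome I from 10394082 to 10414878, was 20797 bp wide and had 30602 ChIP and 24516 input tags, a ratio of 1.25. Its 1179 input tags per kb were 3.15 times the median of the broad peaks, and its 1471 ChIP tags per kb were 2.02 times their median, with 6 broad peaks higher. Only 253 bp to its left lay another broad peak, from 10390560 to 10393828, with 794 input tags per kb and a ratio of 1.16, so that the pair spanned 24319 bp. The 12 other peaks with midpoints within 75 kb of its midpoint had 196 to 640 input tags per kb. In the RefSeq gene table of assembly WBcel235, blmp-1 itself is a gene of chromosome I. Positions of that assembly were not compared with the peaks, and the part of the transgene in these tag densities was not tested.

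The next widest regions differed from it and from each other. A peak of 11057 bp on X from 6735159 to 6746215 had 10568 ChIP and 7015 input tags, a ratio of 1.51, and no neighbour within 1000 bp. A peak of 6888 bp on X from 9546618 to 9553505 had 5659 ChIP and 2566 input tags, a ratio of 2.21, and the lowest q of the broad peaks on X (2.39e-258). On I, 6699 bp from 7078602 to 7085300 had 5541 ChIP and 2997 input tags and a ratio of 1.85. On III, 6023 bp from 5836140 to 5842162 had 4994 ChIP and 2362 input tags and a ratio of 2.11. These 3 had input densities of 373 to 447 tags per kb, between the quartiles of the broad peaks (293 and 471).

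A stretch on II held 4 broad peaks in a row. They ran from 10541834 to 10548266, from 10548489 to 10554474, from 10554793 to 10557675 and from 10558344 to 10559990, with gaps of 222, 318 and 668 bp, and covered 93.3% of 18157 bp. Their ratios were 1.17, 1.23, 1.46 and 1.42, all below the median of the broad peaks. Their input densities of 414, 581, 489 and 512 tags per kb were all above it.

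Ratios in the remaining wide regions also varied. A peak on II from 1239486 to 1245341 had a ratio of 1.94, and peaks on V from 16778419 to 16784173 and on I from 6578291 to 6583601 had 1.90 and 2.11. On I, the peaks from 5372229 to 5378186 and from 9379909 to 9384238 had ratios of 1.35 and 1.10, the last being the lowest of all broad peaks. A peak on X from 2212675 to 2217578 had a ratio of 2.15, and one on III from 10630706 to 10635592 had 1.11. Of the 25 widest broad peaks, which were at least 3732 bp wide, 9 had a ratio under 1.5 and 5 a ratio of 2 or more, with a median of 1.60. Only 1 of these, on III from 7295201 to 7298973, reached 2.5, with 2670 ChIP and 1044 input tags. By chromosome, the 25 fell 5 on I, 7 on II, 6 on III, 1 on IV, 2 on V and 4 on X.

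The other members of the 25 widest had ratios from 1.25 to 1.99. On II these were the neighbours from 3951224 to 3955206 and from 3955650 to 3959506, with ratios of 1.60 and 1.25, and the peaks from 8128215 to 8132086 and from 8741285 to 8745574, with 1.54 and 1.68. On III the peaks from 7727497 to 7731508, from 9050946 to 9055108 and from 12612120 to 12616271 had 1.99, 1.84 and 1.53. The peaks on IV from 13027767 to 13031498, on V from 13786782 to 13791005 and on X from 12175627 to 12179492 had 1.36, 1.40 and 1.79. Width and ratio thus gave different orders of the same regions.

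The broad peaks of lowest q on I, II and IV were 1410 to 1633 bp wide with ratios of 4.33 to 5.27, and those on III, V and X were wider. On II, 1440 bp from 6711877 to 6713316 had 2228 ChIP and 423 input tags, a ratio of 5.27 (q = 6.77e-292). On I, 1410 bp from 527109 to 528518 had 2403 ChIP and 555 input tags, a ratio of 4.33 (q = 1.48e-269). On IV, 1633 bp from 9533914 to 9535546 had 1648 ChIP and 328 input tags, a ratio of 5.02 (q = 1.31e-208). The one on III had 3377 bp from 6358487 to 6361863, with 3332 ChIP and 1128 input tags and a ratio of 2.95 (q = 1.12e-246). On V, 3132 bp from 8038564 to 8041695 had the lowest q of the list (6.50e-294), and its tags could not be inferred. On X, it was the peak of 6888 bp described before, with a ratio of 2.21. The highest ratio of any broad peak, 5.78, was on II from 6978753 to 6980016, a peak of 1264 bp named after its value was seen.

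Broad peaks lay closer to their neighbours than peaks of usual width, edge to edge. The gap to the nearest listed peak had a median of 879 bp (772 to 1024) for broad peaks and 1592 bp (1501 to 1672) for peaks of 300 to 620 bp outside dense chains. A neighbour less than 1000 bp away was listed for 290 broad peaks, or 53.5% (49.2 to 57.8), against 37.2% (35.9 to 38.5), and the broad share was higher on 6 of 6 chromosomes. It ran from 71.6% on II, 58.9% on I, 53.9% on III and 52.6% on X to 43.6% on IV and 38.7% on V, against 35.5% to 42.0% for the peaks of 300 to 620 bp. Gaps under 500 bp were listed for 34.1% of the broad peaks, against 16.8%, and neighbours under 1000 bp away on both sides for 65 of 542 broad peaks, against 310 of the 5070 others. The smallest gap in the list was 200 bp.

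Measured between midpoints, the order of the medians turned round. The nearest midpoint was 2455.5 bp away from that of a broad peak and 2074 bp away from that of a peak of 300 to 620 bp, since a wide peak keeps its neighbours' midpoints away by its own extent. The statement on gaps therefore holds for the edges of the listed regions. Within the broad peaks, the share with a near neighbour was 48.5% under 1500 bp, 54.4% and 56.4% in the next classes and 68.0% at 3000 bp or more. Just below the threshold, from 900 bp to under 1200 bp, it was 51.6%.

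**Figure D4:**
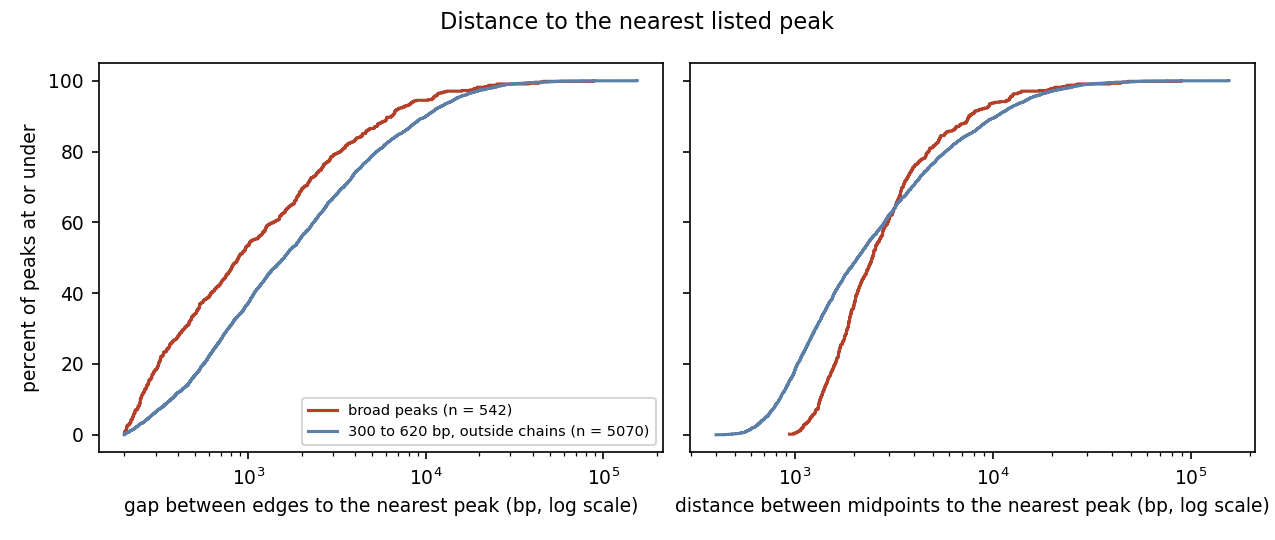
Cumulative percent of peaks by the distance to the nearest listed peak in bp (log scale), between edges on the left and between midpoints on the right, for 542 broad peaks in red and 5070 peaks of 300 to 620 bp outside dense chains in blue. Between edges the red median is 879 bp and the blue 1592 bp; between midpoints the red median is 2455.5 bp and the blue 2074 bp.

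The neighbours of broad peaks were wider than those of the peaks of usual width, but most were under 1200 bp. Neighbours were counted once for each peak they lay beside, so that some were counted more than once. The 355 neighbours within 1000 bp of a broad peak had a median width of 642 bp. For the 2196 neighbours of the peaks of 300 to 620 bp outside dense chains it was 440 bp. Of the 355 and the 2196, 22.0% and 5.92% were 1200 bp or more. Neighbours of broad peaks had a median ratio of 1.87, against 2.25 for neighbours of the others. Of the 542 broad peaks, 252 stood alone, 149 were in chains of 2, 80 in chains of 3 and 61 in chains of 4 listed peaks. The median ratio was 1.75 in those that stood alone, 1.79 in chains of 2, 2.17 in chains of 3 and 2.05 in chains of 4. The peaks of 300 to 620 bp had 1.97, 2.14, 2.42 and 2.42 in the same classes, higher in each. Altogether 494 separate stretches held broad peaks, and 41 of them held more than 1, with 89 broad peaks between them. Where such a stretch had several peaks, it had a median length of 3527 bp, of which a median of 81.4% was listed as bound.

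Broad peaks lay on all 6 chromosomes: 114 on X, 95 on I, 94 on IV, 88 on II, 76 on III and 75 on V. They made up 6.52% (5.41 to 7.78) of the listed peaks on X, 5.56% (4.52 to 6.75) on I, 5.45% (4.43 to 6.63) on IV, 5.20% (4.19 to 6.37) on II, 4.61% (3.65 to 5.74) on III and 4.58% (3.62 to 5.71) on V. X was above 5 of 5 autosomes, but its interval overlapped with that of each. Of all broad peaks, 21.0% (17.7 to 24.7) were on X, against 16.9% (15.9 to 17.9) of the peaks of 300 to 620 bp. The 16.9% includes peaks in dense chains, and without them it was 17.2%. Of the 45 peaks of 1200 bp or more in dense chains, 2 (4.44%) were on X. With dense chains kept in both groups, the share from 1200 bp was 19.8% (16.6 to 23.2), an interval that holds the 16.9%. Outside dense chains the share on X was as high just below the threshold, with 21.8% from 620 bp to under 900 bp and 23.1% from there to under 1200 bp. Peaks of 3000 bp or more did not follow the order of the chromosomes, with 14 on III, 10 on I, 9 on II, 7 on V, 6 on X and 4 on IV. Input tags per kb had a median of 419 in broad peaks on X, against 366 in those on autosomes, and ChIP tags per kb were 820 and 709, with median ratios of 1.84 and 1.81. The peaks of 300 to 620 bp also had more input on X, with 361 tags per kb against 314 on autosomes, and their median ratios were 1.96 and 2.11.

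The central part of the chromosomes held 341 broad peaks, or 62.9% (58.7 to 67.0), and 63.6% (62.3 to 64.9) of the peaks of 300 to 620 bp, so that the share of the narrower peaks lay within the interval of the broad ones. The broad share was the higher one on III and X and the lower one on the other 4 chromosomes. On III it was 71.1% (59.5 to 80.9) against 61.6%, and on V 64.0% (52.1 to 74.8) against 70.2%. Peaks of 3000 bp or more were central in 39 of 50 cases, 78.0%. The share did not rise steadily with width. It was 61.5% in broad peaks under 1500 bp, 62.5% from there to under 2000 bp and 59.4% from there to under 3000 bp. On autosomes, central broad peaks had a median ratio of 1.87 and those on the arms 1.69, against 2.15 and 2.02 in peaks of 300 to 620 bp.

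**Figure D5:**
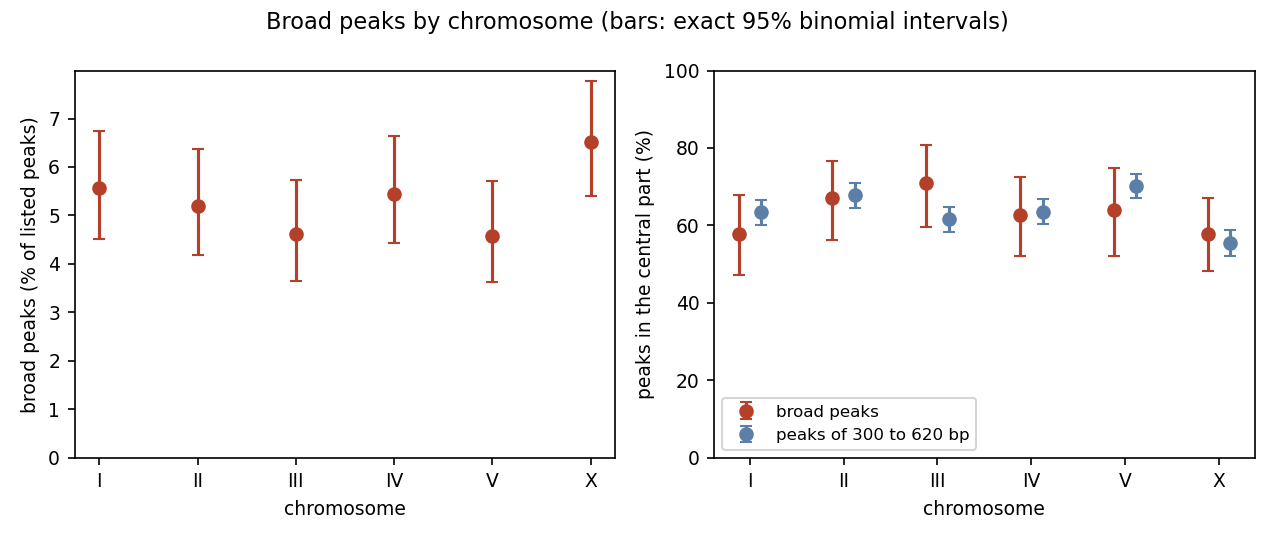
Broad peaks as a percent of the listed peaks on each chromosome (left) and percent of peaks in the central part (right; broad peaks red, peaks of 300 to 620 bp blue), with exact 95% binomial intervals as bars. X has the highest broad share, 6.52%, and the intervals of all 6 chromosomes overlap.

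Along the chromosomes, the median of 195 windows of 500 kb held 2 broad peaks, and 22 windows held none. The most were 9, on X from 14295645 to 14795644, where they made up 21.4% of 42 listed peaks. The next was I from 7516826 to 8016825, with 8 broad among 95 listed peaks. Windows rich in peaks could lack broad ones: I from 4016826 to 4516825 had 66 listed peaks, II from 5501358 to 6001357 had 75 and V from 12007780 to 12507779 had 67, with 0 broad peaks in each. The windows named here were picked from the 195 after their values were seen. Broad peaks were 5.34% of all listed peaks, and no expected number per window was worked out. The most isolated broad peak, named after its value was seen, lay on IV from 16775031 to 16776585. Its neighbours were 117913 bp to the left and 88607 bp to the right, and its ratio was 2.19.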

How the data were processed

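Peaks were called with PeakSeq on WormBase WS180, per the file headers. The deposited score is a q-value of ChIP against input, at most 0.01. How replicates were combined, the aligner, settings and read numbers are not given in the sources used here; positions are 1-based.

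Tag numbers were inferred as the only whole pair whose even-odds binomial tail, times 16906 candidate regions and divided by the rank (place in the list plus 12), gave the q value within a relative tolerance of 1e-11. This matched 10158 peaks, 1 of them with its rank raised by 1 more. The number 16906 is the one under which the q values gave whole tags, so whole tags are not separate support for it. The search was tested on simulated tag pairs. That test covered neither the number of candidate regions nor the rank, and it did not reach the tag totals of the widest peak. Intervals are exact binomial (shares) or order-statistic (medians) at 95%. No test was made, because peaks of 1 list are not replicates. The members and comparisons were chosen with earlier results of these data known. Named peaks were the 25 widest, the lowest q per chromosome and those next to the threshold. Alternatives changed the width threshold, the chain rule, the comparison group, the list and the centre. No reference genome of WS180 was used here, so genes and sequences were not analysed. Scripts ran on Python 3.11.15 with numpy 2.4.6 and scipy 1.17.1, tables on pandas 2.3.3, and plots on matplotlib 3.10.9.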

Additional observations from a re-analysis of the deposited data

How the results depend on the processing

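Of 98 recomputed values, 65 stayed within the range set around the reported value, 32 moved outside it and 1 turned round. The range was the 95% interval over peaks for medians and shares of peaks, and 1.5 times either way for the number of peaks. For the shares of length and of ChIP excess it was an interval over base pairs or tags, which is so narrow that every alternative moved them. Settings without the widest peak, above the lowest listable ratio and with edge tags removed were chosen after the data were seen. The distance between midpoints reversed the order of the nearest-peak medians, with 2455.5 bp for broad peaks and 2074 bp for peaks of 300 to 620 bp. Broad peaks numbered 833 from 1000 bp and 311 from 1500 bp. From 1500 bp, the median gap was 750 bp, −log10 q 42.9 and input 386 tags per kb. With chains joined under 2000 bp, the median gap was 1058.5 bp and 48.7% had a near neighbour. In the list with q of at most 1e-20, −log10 q was 60.6, the ratio 2.16 against 3.38, ChIP 811 against 937 and input 360 against 269 tags per kb. Over all peaks the interval for ChIP in broad peaks had held the median of the narrower ones, and here broad peaks were lower. Peaks of fewer tags pass that cut only at a higher ratio, and the part of the cut in these differences was not tested. Above the lowest listable ratio the median was 1.92, and less edge tags ChIP was 697 and input 361 per kb. The central share was 68.0% against 67.2% in the list with q of at most 1e-20. A narrower central part, which holds fewer peaks by construction, held 42.8% of broad and 44.7% of other peaks. Shares of length and of ChIP excess were 24.995% and 22.2% from 1000 bp, 13.6% and 11.2% from 1500 bp, 20.9% and 18.6% with dense chains kept, 20.6% and 18.2% with chains joined under 500 bp, 16.4% and 13.5% under 2000 bp, 29.9% and 22.4% at q of at most 1e-20, 18.8% and 15.7% on autosomes, and 18.8% and 16.3% without the widest peak. The median ratio was lower and median input per kb higher in broad peaks in all alternatives run for each; without the widest peak neither was recomputed, nor the ratio less edge tags or input above the lowest listable ratio. No paired analysis was possible because each peak has a single q value over all libraries, which also kept replicates from being left out in turn. The cause of these shifts was not tested.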
